A study of Mus musculus with 8 samples.

Results

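This account describes how far 2 mouse kidney epithelial cell lines differed in their response to the drug THZ1. For every gene the response of each line was the THZ1 level minus the solvent (DMSO) level, and the difference between the lines was the response of the Pkd1 null line minus that of the Pkd1 heterozygous line. The genes described are the 10731 with a mean level of at least 1 FPKM (fragments scaled to transcript length and to the mapped fragments of the library) over the 8 libraries, of 18631 genes in the files. No gene was chosen by its response. The other 7900 genes lay under that level, and 1319 of them were listed at 0 in every library.

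CDK7 is a kinase that works with cyclin H and MAT1 as part of the general transcription factor TFIIH. It phosphorylates the C-terminal repeats of the largest subunit of RNA polymerase II when transcription starts, and it also activates kinases of the cell cycle. THZ1 binds CDK7 covalently and also inhibits the related kinases CDK12 and CDK13, so genes with short-lived transcripts are commonly among the first whose RNA falls. Pkd1 encodes polycystin-1, a receptor-like protein of the primary cilium of kidney tubule cells, and its loss causes autosomal dominant polycystic kidney disease.

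Poly(A) RNA was sequenced in 4 groups of 2 libraries. The line pkd1(PH), Pkd1+/-, and the line null(PN), Pkd1-/-, each received DMSO or 50 nM THZ1 for 6 h. Both lines grew in medium with serum, insulin, transferrin, selenium, IFNγ, nystatin and T3, so every group had been exposed to interferon. There is 1 line per genotype, so an effect of the genotype and one of the line as such cannot be told apart. The labels do not say whether the 2 libraries of a group stem from independent cultures. The p-values measure no more than how these samples scatter, and that scatter may be technical.

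Pkd1 was the first gene examined. It stood at 4.58 and 5.3 FPKM in the heterozygous DMSO libraries and 3.71 and 4.2 under THZ1, and at 1.69 and 1.32 and then 1.22 and 1.21 FPKM in the null libraries. Every null library was below every heterozygous one, and the null cells still had Pkd1 RNA. The Pkd1 responses were -0.26 in heterozygous and -0.17 in null cells on the log2(FPKM + 1) scale, and their difference of 0.087 ± 0.14 (SE) did not pass the test (limma adjusted p = 0.618). The libraries held 14007 to 15439 genes above 0. Summed over 8 epithelial markers the level was 689 to 760 FPKM in heterozygous and 372 to 439 in null libraries. Markers of endothelium summed to at most 0.23 FPKM. The 7 leukocyte markers summed to 8.21 to 12.8 FPKM. Of these, 2 reached a mean of 1 FPKM, and Adgre1 and Cd3e were at 0 throughout. Of 10 collecting duct and 9 proximal tubule markers 2 each reached a mean of 1 FPKM, and none of the 5 markers of the loop of Henle and distal tubule did. Null DMSO replicate 1 and null THZ1 replicate 2 stood apart, with 3378 and 3129 genes just above 0 (0.01 to 0.2 FPKM) against 2230 to 2586 in the other 6 libraries.

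The lines responded mostly in the same direction and to a different extent. Of the 2035 genes called in both lines (limma adjusted p under 0.05 for each response), 1858 moved the same way and 177 moved in opposite ways (8.7% of those called in both lines and 1.65% of all tested). Among the 1858, the change in null cells was the larger in 1666, and the median absolute response was 0.56 in null and 0.26 in heterozygous cells. Over all 10731 genes the 2 responses had a Pearson r of 0.60 across genes, which are not independent replicates, and the estimates had the same sign in 7347 genes (68.5%). The median absolute response was 0.34 in null cells and 0.11 in heterozygous cells. In null cells 75.7% of all tested genes were called, 24.6% up and 51.1% down, and in heterozygous cells 22.4%, 12.2% up and 10.3% down.

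The difference between the responses was called in 6463 genes, or 60.2% of those tested. In 4843 genes (45.1%) null cells changed to lower values than heterozygous cells did, and in 1620 (15.1%) to higher values. At least 2-fold differences were found in 598 and 29 of these genes. Every null THZ1 to DMSO library difference lay below every heterozygous one in 5643 genes (52.6%), and above in 2174 (20.3%).

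Most of the called differences came from genes with a called response in null cells alone, 3684 of them lower (34.3%) and 1080 higher (10.1%). Their heterozygous estimates were small, with medians of -0.023 and 0.046. The next group moved the same way in both lines and further in null cells, 771 genes downward (7.18%) and 417 upward (3.89%). Only 14 genes, 12 up (0.112%) and 2 down (0.0186%), moved the same way and further in heterozygous cells. Opposite movement was called in 138 genes that rose in heterozygous and fell in null cells (1.29%), and in 39 with the reverse pattern (0.363%). A response in heterozygous cells alone was called in 186 genes of the called differences, 142 lower (1.32%) and 44 higher (0.41%), and in 134 genes neither response passed although their difference did. The scatter plot of the responses of the 2 lines shows these groups as a cloud that is steeper than the line of equal response.

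**Figure D1:**
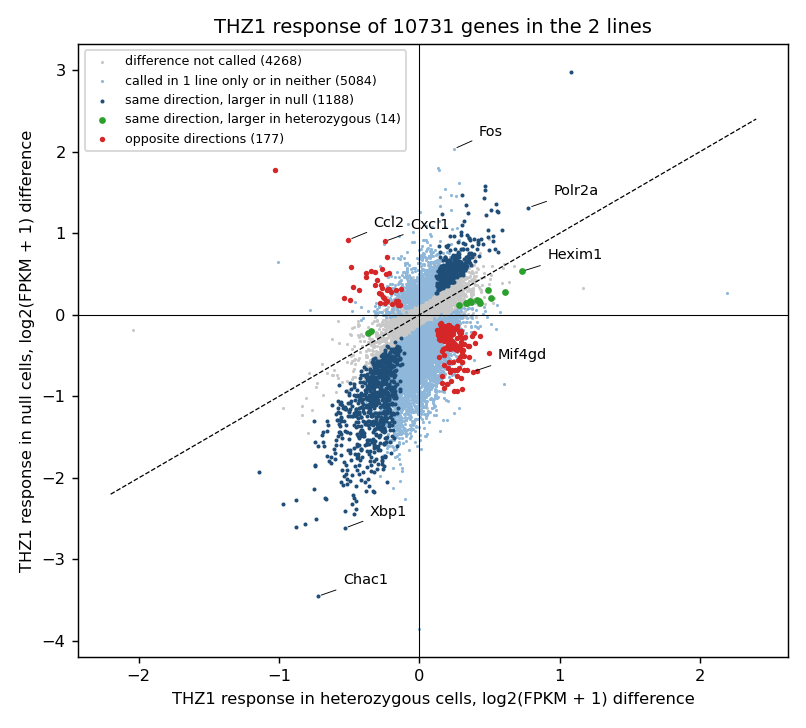
THZ1 response of 10731 genes in heterozygous cells (x axis) and in null cells (y axis), as differences of mean log2(FPKM + 1), n = 2 libraries per group. Each point is a gene, coloured by the class of its difference between lines, and the dashed line marks equal responses. Of the genes with a called difference, 417 rose and 771 fell in both lines and lie farther from 0 in null cells, 14 lie farther in heterozygous cells, and 177 lie in the quadrants of opposite response.

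The scaling between libraries sets where the divide between higher and lower falls. With the deposited FPKM values the median difference over all tested genes was -0.19. With median-of-ratios scaling it was 0.023, a shift carried by the null response, whose median went from -0.17 to 0.027 while the heterozygous one stayed near 0 (0.0095 and 0.0022). The share of called differences that were higher was 25.1% as deposited, 52.6% with median-of-ratios, 38.5% with upper-quartile and 20.3% with library total scaling, at 3475 higher and 3126 lower, 2467 and 3937, and 1318 and 5167 genes. The values that follow are on the deposited scale, where this median is -0.19.

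Genes of the transcription machinery were among those that differed, as were 60.2% of all tested genes. Polr2a, which encodes the largest subunit of RNA polymerase II and thus the substrate of CDK7, had 64.9 and 63 FPKM in the heterozygous DMSO libraries and 110 and 110 under THZ1. In the null libraries it went from 47 and 51.2 to 122 and 125 FPKM. Null cells began lower and ended higher, with no overlap between treatments in either line. The rise was 0.78 in heterozygous and 1.31 in null cells, and the difference was 0.54 ± 0.06 (SE, limma adjusted p = 2.12e-05).

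The 3 genes of the CDK7 complex had called responses in null cells alone, all of them lower. This class held 34.3% of all tested genes. Cdk7 had 8.3 and 7.43 FPKM in null DMSO and 5.07 and 5.29 in null THZ1 libraries, against 7.36 and 6.42 and 6.34 and 6.27 in heterozygous ones. The differences between lines were -0.41 ± 0.11 for Cdk7, -0.28 ± 0.10 for Ccnh (cyclin H) and -0.42 ± 0.08 for Mnat1 (MAT1), with limma adjusted p of 0.00746, 0.0276 and 0.000768. With median-of-ratios scaling the Cdk7 and Ccnh differences did not pass, at -0.21 (adjusted p = 0.111) and -0.067 (0.563), and for Ccnh the call was also lost without heterozygous DMSO replicate 1, heterozygous THZ1 replicate 2, or either null library numbered 1, and with upper-quartile scaling (-0.18). With the transcript length trend removed, an alternative chosen after seeing the data, the Cdk7 (-0.13) and Mnat1 (-0.16) differences did not pass either. Among the other THZ1 targets, Cdk13 rose in null cells (0.46) with a difference of 0.32, while Cdk12 rose in both lines, 0.44 in null and 0.50 in heterozygous cells, with a difference of -0.067 ± 0.11 that did not pass (limma adjusted p = 0.637). Cdk9, the kinase of the elongation factor P-TEFb, had a difference of -0.14 that did not pass either (limma adjusted p = 0.141).

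Of 20 genes for RNA polymerase II kinases and cyclins, 5 differed upward and 8 downward between the lines (median -0.10, and 0.12 with median-of-ratios scaling). The lists here are read against the 15.1% of all tested genes that differed upward and the 45.1% that differed downward. Hexim1, which holds CDK9 inactive, and Brd2, a bromodomain protein of acetylated chromatin, rose in both lines and further in heterozygous cells, Hexim1 by 0.73 against 0.53 and Brd2 by 0.49 against 0.30. With median-of-ratios or upper-quartile scaling neither gene stayed in that class. Of 40 polymerase subunits and general factors, 4 differed upward and 21 downward, with a median of -0.33. This median was 0.15 in the heterozygous response and -0.13 in the null response, where it became 0.087 with median-of-ratios scaling. With that scaling 10 of the 40 differed upward and 15 downward. Lower members of TFIID and TFIIH included Taf6 at -0.93, Taf12 at -0.77, Tbp at -0.77, Gtf2h3 at -1.02 and Gtf2h4 at -0.76. Polr2e, Polr2j and Gtf2f1 rose in heterozygous and fell in null cells. Polr2e and Polr2j kept this class under 1 of the 3 scalings each, and Gtf2f1 under 0. Over the 20 alternatives they kept it in 11, 17 and 7. Of 24 elongation and pause factors 5 differed upward and 7 downward (median 0.023, and -0.016 with library totals). With median-of-ratios scaling 15 were higher and 4 lower (median 0.25), and with upper-quartile scaling 9 and 6. Lower members were the NELF subunit gene Nelfe at -0.89, the histone H2B ubiquitin ligase gene Rnf40 at -0.97 and Ell2 at -0.83.

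Above a mean log2 level of 3, genes that fell in both lines and further in null cells were led by the stress response genes Chac1 and Xbp1. Chac1, an enzyme that degrades glutathione and a target of ATF4, had 24.3 and 26.3 FPKM in heterozygous DMSO and 14.8 and 15 in heterozygous THZ1 libraries. In null cells it went from 19.3 and 18.6 to 0.65 and 1.01 FPKM. The null DMSO libraries began somewhat below the heterozygous ones, and the null THZ1 libraries ended near 0. The difference in response was -2.73 ± 0.12 (SE, limma adjusted p = 3.57e-08), and it spanned -3.62 to -1.43 over the alternatives, where the lowest and highest values come from the pseudocounts.

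Xbp1, whose product turns on genes that relieve stress in the endoplasmic reticulum, went from 62.8 and 63.9 to 44.3 and 42.7 FPKM in heterozygous and from 45.6 and 44.4 to 5.78 and 7.3 in null cells, a difference of -2.08 ± 0.11 (limma adjusted p = 6.07e-08). Srsf3, which encodes an SR splicing factor, had 151 and 144 FPKM in heterozygous DMSO and 121 and 115 in heterozygous THZ1 libraries. In null cells Srsf3 dropped from 110 and 105 to 22.2 and 24 FPKM, a difference of -1.85 ± 0.07 (limma adjusted p = 9.35e-09). Both genes had THZ1 libraries below all DMSO libraries of the same line. Lrrc14, which encodes a leucine-rich repeat protein, and Eya2, a transcriptional coactivator with phosphatase activity, followed at -1.97 and -1.85. Chac1, Xbp1, Lrrc14, Srsf3 and Eya2 stayed in this class in all 20 alternatives.

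Btg2, an antiproliferative early response gene and p53 target (chromosome 1, 134074865 to 134079155 in GRCm38), belonged to the same class. It had 49 and 49.2 FPKM in heterozygous DMSO and 37.7 and 37.4 in heterozygous THZ1 libraries, and 58.4 and 57.6 and then 11.8 and 12.7 FPKM in null cells. The difference was -1.78 ± 0.07 (SE, limma adjusted p = 9.35e-09), and the class held in all 20 alternatives. The promoters of Chac1 and Btg2 are shown because these genes had among the steepest losses in null cells that heterozygous cells shared in part. They are the 250 bases before the RefSeq start site in GRCm38.p6, for Chac1 at chr2:119350992-119351241 on the plus strand and for Btg2 at chr1:134079156-134079405 on the minus strand. Capitals mark CCAAT in Chac1 and TGACGTCA in Btg2, each searched on both strands, and other motifs were left in lower case.
Chac1: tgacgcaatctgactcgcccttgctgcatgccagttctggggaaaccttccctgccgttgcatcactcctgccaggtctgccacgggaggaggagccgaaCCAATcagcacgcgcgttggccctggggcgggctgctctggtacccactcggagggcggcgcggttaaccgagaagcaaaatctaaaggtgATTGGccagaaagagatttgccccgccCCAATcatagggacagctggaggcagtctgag
Btg2: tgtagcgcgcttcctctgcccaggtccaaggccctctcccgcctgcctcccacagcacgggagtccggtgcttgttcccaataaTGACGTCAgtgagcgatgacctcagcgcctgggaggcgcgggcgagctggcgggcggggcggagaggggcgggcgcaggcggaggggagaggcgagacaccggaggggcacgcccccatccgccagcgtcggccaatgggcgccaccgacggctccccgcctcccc
CCAAT occurs at 3 places in the Chac1 window and TGACGTCA at 1 in that of Btg2. In RefSeq windows from 250 bases before to 50 after the start, CCAAT was in 37.4% and TGACGTCA in 1.79% of all 32851 promoters. Counted by gene, in any of its promoters, they were in 41.1% and 2.03% of all genes in that table. Among the tested genes with a promoter in that table, TGACGTCA was in 3.75% of all and in 5.3% of those that fell in both lines and further in null cells. For CCAAT these shares were 43.9% and 44%. The match is a description of letters and says nothing of a factor bound there.

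Upward and above the same level, the pattern was led by Rbm14, Rbm12, Zfp36, Icam1 and Id1. Zfp36, whose product tristetraprolin speeds the decay of AU-rich mRNAs, had 4.05 and 5.17 FPKM in heterozygous DMSO and 6.69 and 6.77 in heterozygous THZ1 libraries, and went from 8.31 and 6.47 to 24.5 and 21.8 in null cells. Icam1, an adhesion molecule that binds leukocytes, rose from 4.67 and 4.56 to 7.18 and 6.32 FPKM in heterozygous cells and from 6.28 and 6.76 to 19 and 19.4 in null cells. In both genes the null THZ1 libraries lay far above the other 6. The differences were 1.06 ± 0.16 for Zfp36, 0.96 ± 0.10 for Icam1, 1.16 ± 0.08 for the RNA-binding coactivator gene Rbm14, 1.08 ± 0.07 for Rbm12 and 0.84 ± 0.13 for Id1, an inhibitor of basic helix-loop-helix factors (limma adjusted p at most 0.000141). Rbm12 kept this class in 8 of 20 alternatives, since its heterozygous rise of 0.16 was close to the threshold (limma adjusted p = 0.0426), and its difference passed in all 20.

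These 2 classes rested in number on the heterozygous libraries. The 417 risen and 771 fallen genes became 129 and 295 without heterozygous THZ1 replicate 1, 160 and 347 without heterozygous THZ1 replicate 2, 199 and 429 without heterozygous DMSO replicate 1, and 306 and 487 without heterozygous DMSO replicate 2.

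Movement the same way in both lines but further in heterozygous cells was rare, and these differences were small. The genes named by the rule were Mindy1 (a deubiquitinase), the homeobox gene Hoxd10 and Hes6 upward, and the kinase gene Plk2 and the secreted glycoprotein gene Fstl1 downward. Mindy1 had 11.8 and 11.1 FPKM in heterozygous DMSO and 15.9 and 15.6 in heterozygous THZ1 libraries, and 15.6 and 16.2 and then 17.7 and 17.6 in null cells, a difference of -0.29 ± 0.08 (limma adjusted p = 0.00779). Hoxd10 and Hes6 had -0.26 and -0.24, and Plk2 and Fstl1 0.15 and 0.14. With median-of-ratios scaling none of the 12 risen genes stayed in the class, and the differences of Mindy1, Hoxd10 and Hes6 did not pass. These differences did not pass with upper-quartile scaling either, and the Hoxd10 and Hes6 calls were also lost without several single libraries. The Plk2 and Fstl1 differences did not pass with library totals (limma adjusted p = 0.130 and 0.117) or without most of the single libraries. Leaving out single libraries brought the 14 genes to between 0 and 15.

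Genes that fell in heterozygous and rose in null cells included 3 genes of the NF-kB list, the chemokine genes Ccl2 and Cxcl1 and the inhibitor gene Tnfaip3. Ccl2, a chemokine that attracts monocytes (chromosome 11, 82035577 to 82037452), had 117 and 108 FPKM in heterozygous DMSO and 77.3 and 80.5 in heterozygous THZ1 libraries. In null cells it went the other way, from 52.6 and 44.2 to 99.9 and 84.9 FPKM. The order of the lines turned over, with heterozygous libraries above null ones under DMSO and null libraries above heterozygous ones under THZ1. The responses were -0.51 ± 0.08 and 0.92 ± 0.08, and the difference was 1.42 ± 0.11 (SE, limma adjusted p = 1.02e-06). This was the class of Ccl2 in all 20 alternatives.

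Cxcl1, a chemokine for neutrophils (chromosome 5, 90891245 to 90893121), had 44.2 and 46.5 FPKM in heterozygous DMSO and 36.7 and 39.5 in heterozygous THZ1 libraries, and went from 62.5 and 56.5 to 120 and 104 in null cells. Its null rise of 0.90 was close to that of Ccl2, and its heterozygous fall of -0.25 was small (limma adjusted p = 0.0227), so that its class held in 15 of 20 alternatives while its difference of 1.15 ± 0.10 passed in all. Tnfaip3, which encodes the NF-kB inhibitor A20 (chromosome 10, 19000910 to 19015410), had 7.67 and 7.72 FPKM falling to 6.36 and 6.16 in heterozygous libraries and 32.1 and 32.3 rising to 37.2 and 38.3 in null libraries. Its difference was smaller, 0.48 ± 0.07 (limma adjusted p = 0.000144). The early response gene Egr1 (-0.54 in heterozygous, 0.20 in null cells) and the cytokine gene Lif (-0.49 and 0.18) also moved in opposite ways. Tnfaip3, Egr1 and Lif were chosen for mention after their values were seen.

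The promoters of Cxcl1 and Tnfaip3 are shown because both genes responded in opposite ways and both windows hold an NF-kB motif (GGG, any 2 bases, then TTTCC), marked in capitals and searched on both strands. They are the 250 bases before the start site in RefSeq's GRCm38.p6, chr5:90890995-90891244 on the plus strand for Cxcl1 and chr10:19015411-19015660 on the minus strand for the first of 2 promoters of Tnfaip3. Ccl2 was not in that table.
Cxcl1: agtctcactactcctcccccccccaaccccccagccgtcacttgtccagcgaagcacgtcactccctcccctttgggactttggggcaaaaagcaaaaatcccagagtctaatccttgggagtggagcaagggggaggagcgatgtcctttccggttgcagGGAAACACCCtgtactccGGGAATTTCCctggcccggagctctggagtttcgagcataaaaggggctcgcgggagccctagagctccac
Tnfaip3: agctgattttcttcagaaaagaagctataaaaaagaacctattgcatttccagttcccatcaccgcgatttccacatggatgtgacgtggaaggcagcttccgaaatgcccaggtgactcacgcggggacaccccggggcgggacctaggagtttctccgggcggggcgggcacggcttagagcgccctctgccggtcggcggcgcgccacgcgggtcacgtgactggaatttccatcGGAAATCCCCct
Cxcl1 has 2 matches, 71 to 62 bases before the start on the strand of the gene and 89 to 80 bases before it on the opposite strand. Tnfaip3 has 1, 12 to 3 bases before the start on the opposite strand. The motif, which was added to the search after the values were seen, was in 1.63% of all RefSeq promoters. Counted by gene, in any of its promoters, it was in 1.89% of all genes in the table and in 1.99% of the tested ones. It was in 7 of the 141 genes with opposite responses and a promoter in the table (4.96%). These were 5 of 112 that rose in heterozygous and fell in null cells. The other 2 of the 7, among 29 with the reverse pattern, were Cxcl1 and Tnfaip3 themselves. The motif was also in 3 of 22 genes with a difference at least 2-fold higher (13.6%), Cxcl1 among them. These are small numbers, and no test was made of them.

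Other genes that fell in heterozygous and rose in null cells encode chromatin, signalling and matrix proteins. Gatad2b, a subunit of the chromatin remodeller NuRD, had 16.7 and 14.5 FPKM in heterozygous DMSO and 12.1 and 11.3 in heterozygous THZ1 libraries, and went from 15.3 and 17.9 to 23.1 and 25 in null cells. Its difference was 0.89 ± 0.12, beside 0.88 ± 0.14 for Mib1, a ubiquitin ligase of Notch ligands, 0.84 ± 0.14 for the forkhead gene Foxn3, 0.82 ± 0.19 for the kinase gene Uhmk1 and 0.73 ± 0.14 for Rassf8 (limma adjusted p at most 0.00239). The heterozygous fall of Uhmk1 rested on unequal DMSO libraries of 17.5 and 11.4 FPKM, and its difference lost its call without null DMSO replicate 1 and null THZ1 replicate 2 together. Fibronectin, Fn1, one of the most abundant members, went from 436 and 407 to 355 and 361 FPKM in heterozygous and from 900 and 979 to 1156 and 1153 in null cells, a difference of 0.53 ± 0.07 (limma adjusted p = 3.85e-05). Zfp973 had the most extreme estimates of the class and was listed at 0 in both null DMSO libraries and in heterozygous THZ1 replicate 2, so no fold is given.

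Genes that rose in heterozygous and fell in null cells were more numerous, and their changes were modest, with medians of 0.22 and -0.29. Mif4gd, whose product helps to translate histone mRNAs (chromosome 11, 115607918 to 115612969), had 23.5 and 23.8 FPKM in heterozygous DMSO and 31.7 and 30.5 in heterozygous THZ1 libraries, and went from 15.3 and 14.4 to 8.55 and 8.97 FPKM in null cells. Rhod, a small GTPase, rose from 42.5 and 41.9 to 57.9 and 53.7 FPKM in heterozygous cells and fell from 48.7 and 48.7 to 37.6 and 38.2 in null cells. Dyrk1b, a kinase that promotes quiescence, went from 7.61 and 9.29 to 11.5 and 11.5 and from 9.97 and 9.58 to 5.01 and 6.37 FPKM. In all 3 genes both heterozygous THZ1 libraries lay above both null THZ1 libraries, as the plot of single genes by library shows.

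The differences were -1.08 ± 0.08 for Mif4gd, -0.75 ± 0.07 for Rhod, -1.11 ± 0.14 for Dyrk1b, -0.87 ± 0.09 for the G protein subunit gene Gnb5, -0.83 ± 0.15 for Mxd3, a partner of MAX, and -0.74 ± 0.09 for Ccdc174 (limma adjusted p at most 0.000454). Mif4gd, Rhod and Ccdc174 kept this class in all 20 alternatives, as did Igtp, an interferon-induced GTPase with 0.29 in heterozygous and -0.42 in null cells, and Mxd3 kept it in 8. Other members, named after their values were seen, were the ICOS ligand gene Icosl (-1.22), Cdkn2b (-0.92), which encodes the CDK4 and CDK6 inhibitor p15, and the Mediator subunit genes Med21 (-0.62) and Med31 (-0.67). The interferon factor gene Irf3 (-1.07) left the class under all 3 scalings.

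**Figure D2:**
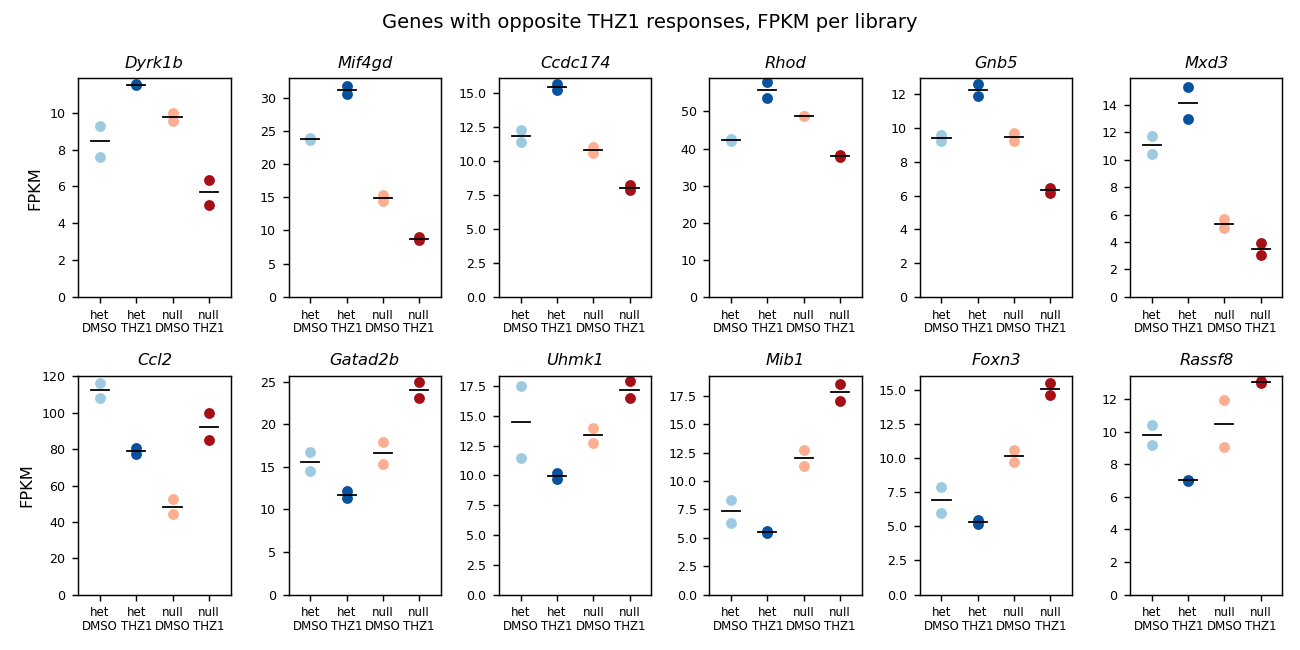
FPKM in each library for the 12 genes named from the 2 classes of opposite response, with 2 points per group, the group mean as a black line, and a y axis that starts at 0. The upper row holds genes that rose in heterozygous and fell in null cells, the lower row the reverse. In every panel the THZ1 points of each line lie apart from its DMSO points, which the naming rule required.

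In each of the 177 genes with opposite responses the THZ1 and DMSO libraries did not overlap in either line. This follows largely from their selection by called responses in these same libraries. Of all tested genes 1392 (13%) had every null library difference one way and every heterozygous one the other. How many genes fall in the 2 opposite classes depended strongly on the processing, as the bar chart by setting shows. Median-of-ratios scaling turned 138 and 39 genes into 46 and 100, upper-quartile scaling into 70 and 71 and library totals into 77 and 42. Of the 138 genes 27 kept their class under all 3 scalings, and of the 39 genes 22 did. Over all 20 alternatives 4 of the 138 and 1 of the 39, Ccl2, kept it. Leaving out single heterozygous libraries gave other counts, with 40 and 10 genes without DMSO replicate 1, 30 and 7 without THZ1 replicate 1, 39 and 7 without THZ1 replicate 2, and 149 and 66 without DMSO replicate 2. Without null DMSO replicate 1 the counts were 99 and 22.

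**Figure D3:**
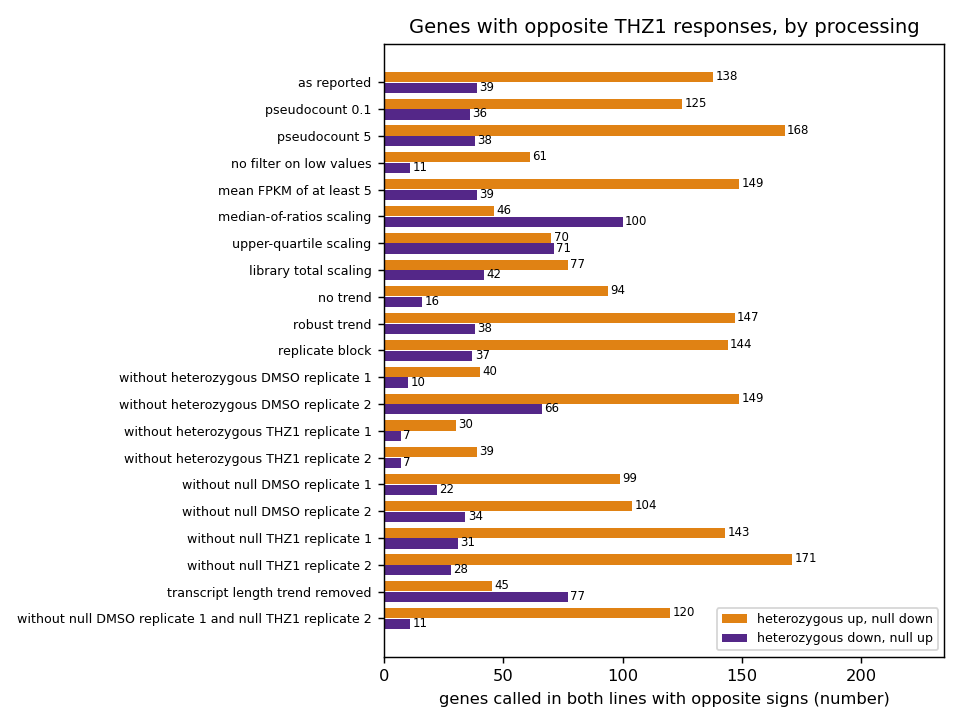
Number of genes called in both lines with opposite signs (x axis) under each processing setting (y axis), split into genes that rose in heterozygous and fell in null cells (orange) and the reverse (purple). The counts are 138 and 39 as reported, and the purple bar is the longer one with median-of-ratios scaling (100 against 46), with upper-quartile scaling (71 against 70) and with the transcript length trend removed (77 against 45).

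Among genes with a called response in null cells alone and a mean log2 level of at least 3, the largest positive differences were in Ago2, the slicing Argonaute protein of microRNA silencing, Mical3, an actin-binding monooxygenase, and the kinase gene Hipk2. Ago2 had 10.4 and 8.58 FPKM in heterozygous DMSO and 8.16 and 8.07 in heterozygous THZ1 libraries, and went from 9.17 and 11.2 to 24.8 and 24.6 FPKM in null cells, a difference of 1.40 ± 0.13 (SE, limma adjusted p = 2.52e-06). Mical3 was level in heterozygous cells (0.0057) and rose by 1.26 in null cells, while Hipk2 had 0.23 and 1.47. Above the same level the largest negative differences were in Arfgap1, which acts on the Golgi GTPase ARF1, at -1.93 ± 0.13, Pimreg, a mitotic regulator, at -1.90 ± 0.08, and Dnajc30, a mitochondrial J-domain protein, at -1.70 ± 0.14. Pimreg fell from 27.1 and 28.9 to 6.32 and 5.79 FPKM in null cells and had 76.5 and 80.6 and 70.8 and 72 in heterozygous cells. The null THZ1 libraries of all 6 genes lay outside the range of the other 6 libraries.

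Genes with a called response in heterozygous cells alone included Lmbrd2 and Prnd (the prion-like protein doppel) on the side where heterozygous cells fell. Prnd had 1.66 and 2.04 FPKM in heterozygous DMSO and 1.19 and 1.08 in heterozygous THZ1 libraries, and 31 and 30.1 and then 35 and 30.5 in null libraries, a difference of 0.51 ± 0.12 (limma adjusted p = 0.00276). On the other side were Pik3r3, a regulatory subunit of PI3 kinase, Rilpl2 and Cnp. Pik3r3 rose from 10.3 and 9.82 to 15.9 and 15.1 FPKM in heterozygous cells and had 14.4 and 14.6 and 14.5 and 15.1 in null cells, a difference of -0.55 ± 0.08 (limma adjusted p = 0.000115). Lmbrd2 had 0.61, Rilpl2 -0.54 and Cnp -0.51, and the Lmbrd2 call was lost in 5 of 20 alternatives.

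The deposited values give no strand, and how reads of overlapping genes were assigned is not stated in the sources. The spans of Rbm14, Rbm12, Lrrc14, Mindy1, Hoxd10, Mif4gd, Ccdc174, Gnb5, Mxd3, Hipk2, Pimreg, Dnajc30, Lmbrd2, Prnd, Cnp, Pkd1, Cdk7, Mnat1, Taf6, Cxcl10, Bcl2l1, Cox7a2, Cdc20, Cdc45, Rfc4, Col4a1, Erbb2 and Per3 overlap another gene in the files, so their values may hold reads of that gene.

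Gene lists gave the wider picture, each read against the 45.1% of all genes that differed downward, the 15.1% upward and the median of -0.19. List members named beyond the 3 with the smallest adjusted p in a list were picked after their values were seen, and near-identical or overlapping copies make some of them uncertain. Immediate early genes, the first transcripts induced by growth signals and stress, stood on the upper side, with 17 of 32 higher and 6 lower and a median of 0.24 (0.46 with median-of-ratios scaling). Fos, a subunit of the factor AP-1 (chromosome 12, 85473890 to 85477274), had 1.95 and 1.75 FPKM in heterozygous DMSO and 2.27 and 2.48 in heterozygous THZ1 libraries. In null cells it went from 2.06 and 1.85 to 12.8 and 9.6 FPKM, a difference of 1.79 ± 0.16 (SE, limma adjusted p = 1.92e-06). Heterozygous cells had no called Fos response (0.24, limma adjusted p = 0.135), and the null THZ1 libraries stood above all others.

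Other early genes split by member. Junb (1.18), Dusp5 (0.93), Dusp6 (0.58), which encode a second AP-1 subunit and phosphatases of ERK, Zfp36 and Zfp36l2 (0.63) differed upward. Btg2, Jund (-0.89), Ccn2 (-0.67), Dusp1 (-0.57), Btg1 (-0.38) and Klf2 (-1.34) differed downward. Klf2, a low-level Krüppel-like factor in heterozygous cells (0.24 and 0.72 FPKM under DMSO), fell from 2.88 and 2.98 to 0.75 and 0.62 FPKM in null cells. Myc rested at 35.8 and 36.7 and then 30.6 and 31.9 FPKM in heterozygous cells, a fall of -0.21 (limma adjusted p = 0.00824), and had 40.5 and 41.2 and 43 and 41 in null cells, for a difference of 0.25 ± 0.07 (limma adjusted p = 0.00566).

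NF-kB and inflammatory genes had 7 of 27 higher and 9 lower (median -0.12, and 0.11 with median-of-ratios scaling, where 13 were higher and 8 lower). The chemokine genes Ccl2, Cxcl1 and Cxcl2 (1.66) and Icam1 differed upward. The NF-kB subunit genes Rela, Relb (-0.81) and Nfkb2 (-0.74) and the inhibitor gene Nfkbie (-1.46) differed downward, while the subunit gene Rel was higher (0.53). Rela had 80.8 and 88.7 FPKM in heterozygous DMSO and 79.9 and 79.7 in heterozygous THZ1 libraries, and went from 80.8 and 82.7 to 31.7 and 35.4 FPKM in null cells, a difference of -1.18 ± 0.08 (limma adjusted p = 3.5e-07). The chemokine gene Cxcl10, which is induced by interferon, fell in both lines and further in null cells (-0.77 ± 0.08).

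Interferon-stimulated genes had 4 of 26 higher and 13 lower with a median of -0.27 (-0.047 with median-of-ratios scaling). These shares were close to the 15.1% and 45.1% of all tested genes. Both lines were cultured with IFNγ. The signalling genes Stat2 (-0.84) and Irf9 (-0.99) and the effectors Ifit1 (-0.82), Usp18 (-0.91) and Oasl2 (-0.69) differed downward. Ifit3 had 137 and 143 FPKM in heterozygous DMSO and 141 and 143 in heterozygous THZ1 libraries, and went from 133 and 139 to 84.2 and 93.2 in null cells. The 4 higher members were B2m (0.37), H2-K1 (0.38) and H2-D1 (0.39) of MHC class I, whose family members share near-identical sequence, and Bst2 (0.37). Ifi35 rose in heterozygous and fell in null cells.

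The unfolded protein and ATF4 list had 6 of 30 higher and 16 lower, at a median of -0.20 that became 0.034 with median-of-ratios scaling. As a whole the list was thus close to all tested genes (15.1% higher, 45.1% lower, median -0.19). Besides Chac1 and Xbp1, Trib3 (-2.15), Atf4, Ddit3 (-1.15), Nupr1 (-0.90) and Herpud1 (-0.77) differed downward. Atf4, the transcription factor of the integrated stress response, had 256 and 271 FPKM in heterozygous DMSO and 219 and 214 in heterozygous THZ1 libraries, and went from 200 and 193 to 69.9 and 70.8 in null cells, a difference of -1.19 ± 0.06 (limma adjusted p = 6.07e-08). The stress sensor gene Ern1 (0.64), the phosphatase subunit gene Ppp1r15a (0.65), Atf6 (0.23) and the chaperone genes Hsp90b1 (0.33), Pdia6 (0.35) and Pdia4 (0.18) were the 6 higher ones.

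Of 19 Bcl2 family and caspase inhibitor genes 3 were higher and 9 lower (median -0.12, and 0.073 with median-of-ratios scaling), shares close to those of all tested genes. Bid, a pro-apoptotic member, had 21.7 and 21.2 FPKM in heterozygous DMSO and 18.4 and 19 in heterozygous THZ1 libraries, and went from 37.9 and 34.1 to 7.99 and 10.1 FPKM in null cells, a difference of -1.69 ± 0.12 (limma adjusted p = 4.58e-07). Mcl1, a short-lived survival factor, differed by -0.42, and Bcl2l1, which encodes Bcl-xL, by 0.42. The pro-apoptotic genes Bbc3 (0.54) and Bcl2l11 (0.44) were higher. Of 27 p53 targets 9 were higher and 11 lower (median -0.053, and 0.15 with median-of-ratios scaling), with Phlda3 (-1.02) and Aen (-1.01) lower and Perp (0.58), Gadd45a (0.45) and Cdkn1a (0.23) higher.

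The cytosolic ribosomal proteins had the largest share of members called in 1 direction of the 34 lists. Of 38 genes, 34 differed upward and 0 downward, with a median difference of 0.28, and all 38 differed upward with median-of-ratios scaling. All 38 rose in null cells (median 0.39) and 8 rose in heterozygous cells (0.11). Rplp2 had 626 and 687 FPKM in heterozygous DMSO and 715 and 750 in heterozygous THZ1 libraries, and went from 564 and 556 to 840 and 827 in null cells, a difference of 0.41 ± 0.07 (limma adjusted p = 0.000261). Ribosomal protein genes have many near-identical pseudogenes, so their values are uncertain. Oxidative phosphorylation had 20 of 40 higher and 4 lower (median 0.18), with Cox7a2 (0.42), Ndufa4 (0.42) and Ndufa5 (0.41) higher, and Ndufs1 (-0.25), Ndufs3 (-0.21), Ndufs7 (-0.24) and Cyc1 (-0.19) lower. All 4 of these lower calls were lost under median-of-ratios (33 of the 40 higher, 0 lower) and under upper-quartile scaling (28, 0). Library totals went the other way, leaving 18 genes of this list higher but 6 lower. By contrast ribosome biogenesis had 1 of 37 higher and 27 lower (median -0.30, and -0.067 with median-of-ratios scaling), with the rDNA transcription factor gene Ubtf at -0.80, Nop16 at -0.83 and Tcof1 at -0.62.

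Lists of DNA repair and cell division had medians below that of all genes. Of 36 DNA damage response genes, 0 differed upward and 24 downward, with a median of -0.47 that remained at -0.29 with median-of-ratios scaling. Rad50, a subunit of the break-sensing MRN complex, had 20.1 and 18.6 FPKM in heterozygous DMSO and 16.7 and 16.5 in heterozygous THZ1 libraries, and went from 12.9 and 12 to 4.67 and 5.62 in null cells, a difference of -0.93 ± 0.11 (limma adjusted p = 1.67e-05). Rad51d (-1.01), Fancf (-1.07), Brca2 (-0.63), Mdc1 (-0.76) and Nbn (-0.76) were among the lower members. Mitosis genes had 1 of 35 higher, Cenpf (0.28), and 23 lower (median -0.34), with Nek2 (-1.17), Ube2c (-0.94) and Cdc20 (-0.76). DNA replication genes had 4 of 37 higher and 20 lower (-0.28), with Rfc4 (-0.94), Cdc45 (-0.91) and Prim1 (-0.90). G1 cyclins, CDKs and their inhibitors had 3 of 26 higher and 17 lower (-0.34), with E2f4 (-0.77) lower and Ccnd1 (0.23), Cdkn1a and Cdkn2a (0.38) higher. With median-of-ratios scaling these 3 medians were -0.11, -0.092 and -0.15, with 5 higher and 17 lower, 8 and 14, and 5 and 8 genes. Ccne1, Cdkn2b and Birc5 rose in heterozygous and fell in null cells. They kept this class in 7, 16 and 12 of 20 alternatives, and under 1, 3 and 1 of the 3 scalings.

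Cholesterol synthesis had 2 of 27 higher and 19 lower (median -0.29, and -0.051 with median-of-ratios scaling). Insig1, a sterol sensor of the endoplasmic reticulum, had 97.5 and 99.7 FPKM in heterozygous DMSO and 92.4 and 93.4 in heterozygous THZ1 libraries, and went from 42.5 and 41.8 to 19.4 and 21.7 in null cells, a difference of -0.92 ± 0.07 (limma adjusted p = 8.22e-07). Mvd and Idi1 of the mevalonate pathway rose in heterozygous and fell in null cells. Serine, one-carbon and nucleotide synthesis had 7 of 30 higher and 14 lower (-0.053, and 0.18 with median-of-ratios scaling), with the purine enzyme gene Pfas at -0.98 and the pyrimidine enzyme gene Umps at -0.79. Glycolysis (9 of 27 higher and 7 lower, median 0.011), the TCA cycle (6 and 4 of 25, 0.026) and HIF targets (6 and 2 of 19, 0.026) had medians that turned to -0.030, -0.015 and -0.015 with library totals. With median-of-ratios scaling these medians were 0.20, 0.26 and 0.26, with 14 higher and 4 lower, 15 and 0, and 11 and 1 genes. Fatty acid oxidation had 2 of 25 higher and 8 lower (-0.093, and 0.13 with median-of-ratios scaling), with the carnitine palmitoyltransferase gene Cpt2 at -1.14 ± 0.12 (limma adjusted p = 6.19e-06).

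Genes of the matrix and of growth signalling stood above the median of all genes. TGF-beta and matrix genes had 12 of 27 higher and 3 lower (median 0.17, positive under all 3 scalings). The feedback inhibitor genes Smad7 (0.72) and Skil (0.61) and the basement membrane collagen gene Col4a1 (0.47) were higher, and the receptor gene Tgfbr2 (-0.46) was lower. Of 8 fibroblast markers only 1 reached a mean of 1 FPKM and was tested, and its difference was 0.38. Summed over all 8 markers the level was 3.8 to 4.27 FPKM in the heterozygous libraries. It was 17.1 to 18.4 FPKM in null DMSO and 24.6 to 24.9 in null THZ1 libraries. The part of these markers in the result was not tested. Of 22 growth factor receptors and ligands 9 were higher and 2 lower (median 0.13, positive under all 3 scalings), with the insulin receptor substrate gene Irs2 at 1.19, Epha2 at 0.84 and Egfr at 0.73, and Erbb2 at -0.91 and Erbb3 at -0.46. YAP/TAZ targets had 8 of 24 higher and 7 lower (median 0.062), with the kinase gene Lats2 at 0.91 and Ankrd1 at -0.82. With median-of-ratios scaling 13 of these targets were higher and 6 lower (median 0.30).

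Genes of the polycystins and the primary cilium had 5 of 38 higher and 19 lower, with a median of -0.26 (-0.082 with median-of-ratios scaling). Here too the shares were close to those of all tested genes. Pkd2, which encodes the channel polycystin-2, had 43.2 and 39.4 FPKM in heterozygous DMSO and 32.6 and 32.5 in heterozygous THZ1 libraries, and went from 51.6 and 53.4 to 35.4 and 34.5 in null cells. Its difference was -0.24 ± 0.07 (limma adjusted p = 0.0107), close to the median of all genes, and did not pass with median-of-ratios (-0.01) or upper-quartile scaling (-0.13). Bbs1, a subunit of the BBSome that carries membrane proteins to the cilium, had 10.3 and 9.98 FPKM in heterozygous DMSO and 6.94 and 6.86 in heterozygous THZ1 libraries, and went from 5.66 and 5.56 to 0.92 and 1.18 in null cells, a difference of -1.19 ± 0.11 (limma adjusted p = 3.11e-06).

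Intraflagellar transport genes followed, with Ift81 at -1.01, Ift74 at -0.90, Ift140 at -0.89 and Ift122 at -0.76, and so did the transition zone gene Rpgrip1l (-1.05). The 5 higher members were Pkhd1 (0.64), the gene of recessive polycystic kidney disease, and Prkcsh (0.37), Ganab (0.29), Sec63 (0.24) and Dnajb11 (0.16), whose products act in the endoplasmic reticulum. Kidney lineage transcription factors had 1 of 18 higher, Hoxb7 (0.50), and 9 lower (median -0.25, and -0.030 with median-of-ratios scaling). Pax2, a factor of the developing nephron, had 60.5 and 70.9 FPKM in heterozygous DMSO and 70.7 and 78.2 in heterozygous THZ1 libraries, and went from 43.8 and 46.1 to 22.7 and 25 in null cells, a difference of -1.07 ± 0.10 (limma adjusted p = 3.9e-06). Pax8 (-0.55), Emx2 (-0.67) and Ehf (-0.57) were also lower.

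RNA processing genes had members at both ends. Of 39 splicing factors 12 were higher and 17 lower (median -0.12, and 0.12 with median-of-ratios scaling), with Hnrnpd (-1.04) and Clk2 (-1.16) beside Srsf3 on the lower side. Srrm2 (-0.17 in heterozygous, 0.30 in null cells) and Prpf8 (-0.15 and 0.17), which encode large spliceosome proteins, fell in heterozygous and rose in null cells. Their heterozygous falls were close to the threshold (limma adjusted p = 0.0431 and 0.04995). Srrm2 kept this class in 13 of 20 alternatives and Prpf8 in 7. Of 30 mRNA decay genes 5 were higher and 16 lower (-0.30, and -0.066 with median-of-ratios scaling), with the deadenylase gene Pan2 at -0.92. Of 19 heat shock genes 6 were higher and 7 lower (-0.018, and 0.21 with median-of-ratios scaling), and the factor gene Hsf1 and the co-chaperone gene Dnajb1 rose in heterozygous and fell in null cells. Hsf1 kept this class in 8 of 20 alternatives and under 0 of the 3 scalings, and Dnajb1 in 18 and under 2. Of 24 NRF2 targets 9 were higher and 8 lower (0.073), with Srxn1 at -1.24 and Me1 at 0.39. With median-of-ratios scaling 16 NRF2 targets were higher and 3 lower (0.31). Clock genes had 1 of 20 higher and 8 lower (-0.018, and 0.21 with median-of-ratios scaling), with Per3 at -0.90 and Per2 at -0.67, and Krüppel-like factors 4 of 15 higher and 5 lower (0.0042, and -0.032 with library totals). The remaining list, fatty acid synthesis, had 5 of 20 higher and 2 lower (0.073), and 14 and 1 with median-of-ratios scaling (0.31). The medians of the polymerase kinases, p53 targets, heat shock, clock, fatty acid oxidation and serine lists were also positive with upper-quartile scaling. With median-of-ratios scaling the higher calls outnumbered the lower ones in several lists where they had not before, with 8 and 1 polymerase kinases, 12 and 10 unfolded protein, 11 and 7 p53, 15 and 5 serine, 10 and 4 fatty acid oxidation, 17 and 11 splicing, 10 and 8 mRNA decay, 7 and 6 Bcl2, 10 and 4 heat shock, 10 and 6 clock and 7 and 3 Krüppel-like genes.

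**Figure D4:**
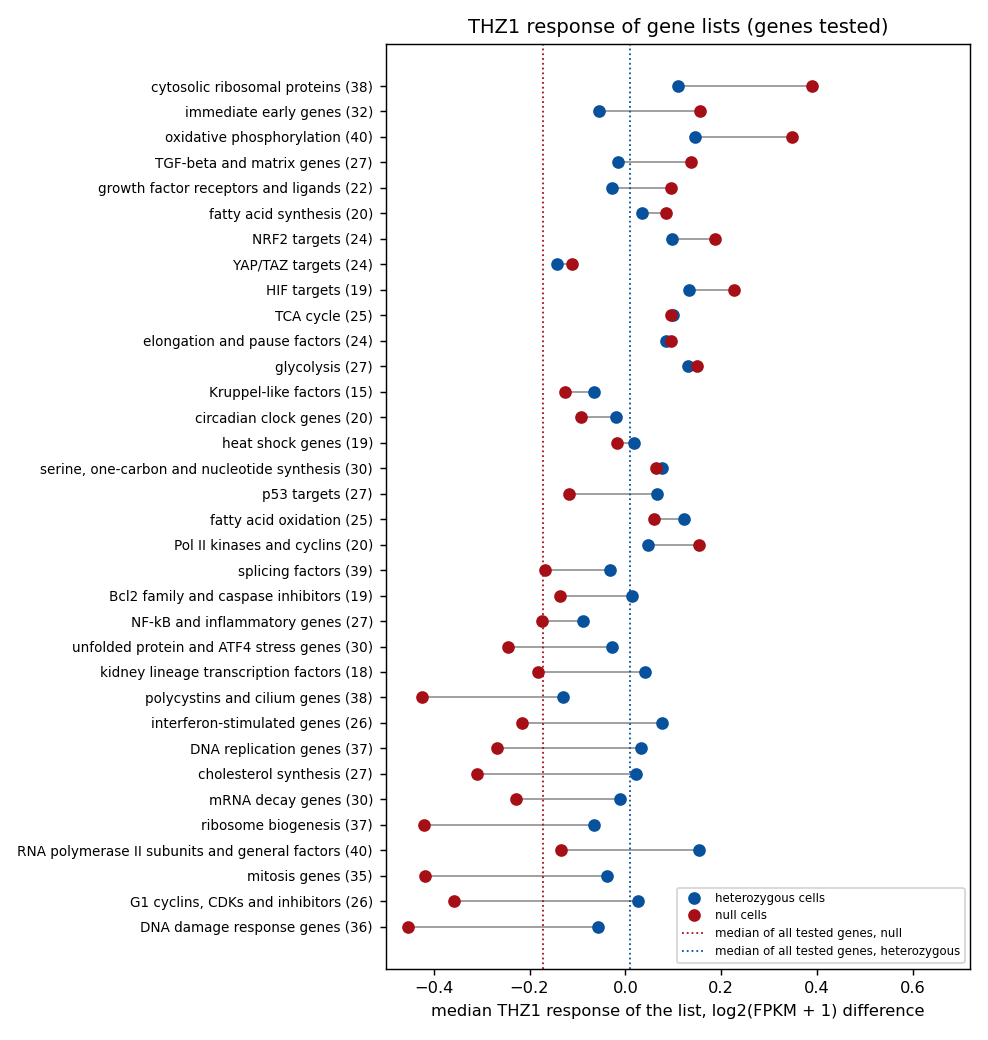
Median THZ1 response of the tested members of 34 gene lists in heterozygous (blue) and null cells (red), in units of log2(FPKM + 1) difference, ordered by the median difference between lines, with numbers of tested genes in parentheses. The dotted lines are the medians of all tested genes, 0.0095 in heterozygous and -0.17 in null cells. Cytosolic ribosomal proteins have the highest null median (0.39, and 0.11 in heterozygous cells), and DNA damage response genes lie at the bottom (-0.058 and -0.45).

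Transcript length and expression level moved with these classes. Genes were divided into 5 groups of about equal number by the longest GENCODE transcript, which was found for 10698 genes. In heterozygous cells the median response went from 0.077 in the shortest group (354 to 2019 bp) to -0.067 in the longest (5282 to 123179 bp). In null cells it was -0.095 and -0.12 at these ends and lower between them, down to -0.24 in the middle group. Genes that rose in heterozygous and fell in null cells numbered 56, 43, 25, 14 and 0 from the shortest to the longest group, and those with the reverse pattern 4, 0, 1, 12 and 22.

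**Figure D5:**
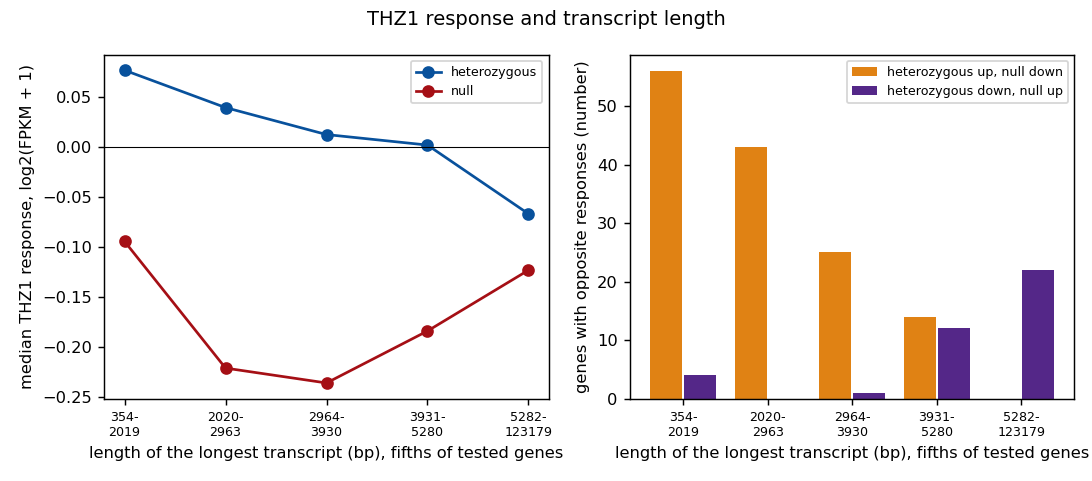
Median THZ1 response in heterozygous (blue) and null cells (red) in 5 groups of genes by transcript length in bp (left), and number of genes with opposite responses in each group (right, orange for heterozygous up and null down, purple for the reverse). The blue line goes from 0.077 to -0.067, and the orange bars go from 56 to 0 while the purple ones go from 4 to 22.

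Removing a length trend from each library, an alternative chosen after seeing the data that also centres the libraries, gave 45 genes that rose in heterozygous and fell in null cells and 77 with the reverse pattern. The part of length in the 2 classes was not tested beyond this. Gene span differed as well, with a median of 18.4 kb for genes that differed downward, 31.4 kb for those that differed upward and 23.6 kb for all. By level, the median difference was -0.32 in the lowest of 5 groups and 0.036 in the highest. The short promoter motif CCGGAAG, bound by ETS factors, was in 25.5% of the genes that differed downward, 17% of those that differed upward and 22.1% of all tested genes with a promoter in the RefSeq table, which covers 8689 genes (81%). TATAAA was in 7.26% of those that differed downward, 9.61% of those that differed upward and 8.03% of all.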

How the data were processed

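RNA-seq of 8 mouse libraries (4 groups of 2) was analysed from the deposited FPKM values, which the authors computed per gene and library. Bowtie2, DESeq2 and the build mm10 are named per the submitters' processing notes, with no versions. The sources used here give no counting program, annotation, strand setting or FPKM program. No counts were used, so the depth is unknown and no counting interval is given.

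Values were taken as log2(FPKM + 1) for the 10731 genes with a mean of at least 1 FPKM. A limma (3.58.1, R 4.3.3) model with 4 group means and an intensity trend was fitted to all of them, and p-values were adjusted by Benjamini-Hochberg over all tested genes, with calls at an adjusted p under 0.05. A fold change on this scale understates the change of low genes. Tables were handled with Python 3.11.15 and pandas 2.3.3, and the fit was tested on simulated data.

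Named genes were a fixed set, then among called differences with a mean log2 of at least 3 and no overlap of treatments the 5 largest each way with the same sign and larger in null, the 3 each way larger in heterozygous, the 6 of each opposite pattern by the smaller absolute response, the 3 each way called in 1 line, and 3 per list by adjusted p. Predicted genes, Rik clones, pseudogenes and replication-dependent histone genes were passed over, and a few named genes are not reported here. The genes, lists and tests were chosen with earlier results of these data known. Of 20 alternatives, 18 were planned and 2 were chosen after seeing the data. Promoters came from RefSeq (GRCm38.p6) and transcript lengths from GENCODE.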

Additional observations from a re-analysis of the deposited data

Results flagged for a closer look

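The results here are those for which the responses of the 2 lines differed by the test of the difference itself (limma adjusted p under 0.05). They comprise 1620 genes with a higher and 4843 with a lower response in null cells, and the named genes that follow, each with its difference between the lines on the log2(FPKM + 1) scale.

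Null cells responded upward relative to heterozygous cells in Rbm14 1.16, Rbm12 1.08, Zfp36 1.06, Icam1 0.96, Id1 0.84, Plk2 0.15, Fstl1 0.14, Ccl2 1.42, Gatad2b 0.89. Further positive differences were those of Uhmk1 0.82, Mib1 0.88, Foxn3 0.84, Rassf8 0.73, Ago2 1.40, Mical3 1.25, Hipk2 1.24, Lmbrd2 0.61, Prnd 0.51. The remaining positive differences were those of Cdk13 0.32, Polr2a 0.54, Myc 0.25.

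Null cells responded downward relative to heterozygous cells in Chac1 -2.73, Xbp1 -2.08, Lrrc14 -1.97, Srsf3 -1.85, Eya2 -1.85, Mindy1 -0.29, Hoxd10 -0.26, Hes6 -0.24. Further negative differences were those of Dyrk1b -1.11, Mif4gd -1.08, Ccdc174 -0.74, Rhod -0.75, Gnb5 -0.87, Mxd3 -0.83, Arfgap1 -1.93, Pimreg -1.90. Negative differences were also those of Dnajc30 -1.70, Pik3r3 -0.55, Rilpl2 -0.54, Cnp -0.51, Pkd2 -0.24, Cdk7 -0.41, Ccnh -0.28, Mnat1 -0.42.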

How the results depend on the processing

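Of 2853 values of 143 named genes under the alternatives, 2778 kept their side of the threshold and, where called, their direction, 72 lost the call and 0 gained it. In 3 a called difference turned sign, all with the transcript length trend removed: Hoxd10 to 0.011, Hes6 to 0.011 and Ccnh to 0.0067. Many of the 143 genes were named for a large difference or a small adjusted p, so their stability does not stand for that of other genes. Of all 6463 called differences, 4746 stayed called in the same direction with median-of-ratios, 5557 with upper-quartile and 6160 with library total scaling. With the length trend removed 4594 did. The differences of Pkd1, Cdk12 and Cdk9, which did not pass, took both signs over the alternatives. Counts moved most for genes called in heterozygous cells. With no filter on low values 1309 genes were called in heterozygous cells, 210 and 400 rose and fell in both lines and further in null cells, 5 moved further in heterozygous cells, and 61 and 11 moved in opposite ways (heterozygous up, then down). Median-of-ratios scaling gave 3475 higher and 3126 lower differences, 3 genes larger in heterozygous cells and 46 and 100 opposite ones. Upper-quartile scaling gave 2467 higher differences and 70 and 71 opposite genes. Library totals gave 243 genes risen further in null cells, 5 larger in heterozygous cells and 77 opposite with heterozygous up. With no intensity trend these were 257 and 6, and 16 were opposite with heterozygous down. With the length trend removed there were 3501 higher and 3010 lower differences, 659 genes risen further in null cells, 7 larger in heterozygous cells, 45 and 77 opposite and 110 called in heterozygous cells alone. Without null DMSO replicate 1 and null THZ1 replicate 2 there were 3 larger in heterozygous cells and 11 opposite with heterozygous down. Leaving out 1 library at a time left a group with 1 sample, assumed to vary like the others, and gave 1291 to 1530 higher and 4378 to 4795 lower differences, 7447 to 8209 genes called in null and 797 to 2534 in heterozygous cells. It gave 129 to 418 genes risen and 295 to 847 fallen further in null cells, 0 to 15 larger in heterozygous cells, 30 to 171 and 7 to 66 opposite, 4096 to 5165 in null cells alone and 46 to 215 in heterozygous cells alone. The replicate numbers did not pair the samples (correlations of deviations from -0.09 to 0.14), and a replicate block gave 1626 higher and 4835 lower differences, 2387 genes called in heterozygous cells and 144 and 37 opposite genes. The cause of these changes was not tested. Precision is limited by 2 libraries a group and by unknown depth.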
